A study of Mus musculus with 6 samples.

Results

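The genes of dopamine synthesis, transport and specification were examined in nuclei from mouse brain lesions made by Foxr2 overexpression. The set was defined by symbol and held 10 of the 32285 genes counted: Slc6a3, Slc18a2, Ddc, Th, Ret, Nr4a2, Pitx3, En1, Foxa1 and Ttc6. All 10 were present in both count matrices. The genes were chosen with measured values of these nuclei already known, so their levels are given as a description and carry no test.

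In each library the 10x Multiome assay measured RNA and open chromatin (ATAC) together in single nuclei. Plasmids were electroporated in utero into the ganglionic eminences of the embryonic forebrain of C57BL/6J mice. The plasmids carried FOXR2 under the ubiquitous CAG promoter, together with GFP and the luciferase Akaluc, and were integrated by the piggyBac transposase. Foxr2 p53LOF received in addition a Cas9 plasmid with a guide against Trp53. A Cas9 plasmid with a control guide is also named in the methods, and whether Foxr2 alone received it is not given in the sources used here. Both genotypes therefore shared FOXR2 overexpression, GFP and Akaluc, and no library of untouched brain was included. The ages of the animals were not given in the labels used here. Count matrices of 1 Foxr2 p53LOF library and 1 Foxr2 alone library were analysed, while the other Foxr2 alone library (replicate 2) contributed its barcodes and peak list only. With 1 library for each genotype there was no replicate, so every interval below is an exact 95% interval for counting error only, and no p-value is given.

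After filtering, 8359 nuclei of Foxr2 p53LOF (median 5527 UMIs, the counted RNA molecules) and 8316 of Foxr2 alone (median 3637) were kept. The libraries shared 140 barcodes out of 10379 and 10096 deposited, and replicate 2 shared 34 and 19 with them. Neuron-like nuclei, named from markers outside the member list, numbered 2251 in Foxr2 p53LOF and 4247 in Foxr2 alone, and were divided into 24 and 27 clusters. Most Foxr2 alone neurons resembled striatal projection or cortical glutamatergic neurons. In Foxr2 p53LOF, GABAergic and Slc17a6 glutamatergic clusters, together with a midbrain-like cluster of 134 nuclei, made up more of the neurons than all other clusters. Clusters without a name held most of the rest. Genotype and the brain region captured therefore cannot be told apart.

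Dopamine is made from tyrosine in a pair of steps, by tyrosine hydroxylase (Th) and then by aromatic L-amino acid decarboxylase (Ddc). The vesicular monoamine transporter (Slc18a2) loads it into synaptic vesicles, and the plasma membrane dopamine transporter (Slc6a3) takes it back up after release. Ddc and Slc18a2 also serve serotonin and noradrenaline neurons. Midbrain dopamine neurons are specified and maintained by the transcription factors Nr4a2, Pitx3, En1 and Foxa1, and carry Ret, the signalling receptor for GDNF family ligands. Ttc6 encodes a protein with tetratricopeptide repeats and lies beside Foxa1 on chromosome 12.

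The promoters of the 4 synthesis and transport genes are shown, since RNA and accessibility went together for some of them only. They run from 250 bases before the start to 50 bases after it, 5′ to 3′ on the strand of the gene, and were taken from RefSeq (build GRCm38.p6). Entries were found for 9 of the 10 members, all but Ret. Slc6a3 lay at chr13:73536497-73536796 (+), Slc18a2 at chr19:59260628-59260927 (+) and Th at chr7:142899946-142900245 (-). Ddc had an upstream start at chr11:11898095-11898394 (-) and a downstream start at chr11:11890359-11890658 (-). Capitals mark the motif matches found on either strand: TGACGTCA, the cAMP response element, in Slc18a2 and Th, and TGACCTTT, the reverse complement of AAAGGTCA, the element bound by monomers of Nr4a2 and related receptors, in the upstream Ddc promoter.
Slc6a3: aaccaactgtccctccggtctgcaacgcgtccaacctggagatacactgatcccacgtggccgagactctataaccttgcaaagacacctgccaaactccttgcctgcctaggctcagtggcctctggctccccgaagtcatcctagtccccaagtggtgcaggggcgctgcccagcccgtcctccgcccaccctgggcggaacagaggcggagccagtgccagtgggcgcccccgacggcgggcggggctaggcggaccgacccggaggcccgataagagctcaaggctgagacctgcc
Slc18a2: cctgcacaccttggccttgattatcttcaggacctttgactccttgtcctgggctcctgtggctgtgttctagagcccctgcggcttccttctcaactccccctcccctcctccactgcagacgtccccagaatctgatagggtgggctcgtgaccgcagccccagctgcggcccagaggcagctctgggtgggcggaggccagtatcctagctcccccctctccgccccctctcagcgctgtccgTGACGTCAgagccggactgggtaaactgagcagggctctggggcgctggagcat
Th: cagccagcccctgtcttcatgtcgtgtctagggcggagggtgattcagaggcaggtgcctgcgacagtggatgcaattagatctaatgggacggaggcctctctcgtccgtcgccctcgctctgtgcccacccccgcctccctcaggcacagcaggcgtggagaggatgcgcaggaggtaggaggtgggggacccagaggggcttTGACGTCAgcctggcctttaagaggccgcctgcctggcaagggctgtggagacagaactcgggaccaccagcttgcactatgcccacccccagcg
Ddc upstream: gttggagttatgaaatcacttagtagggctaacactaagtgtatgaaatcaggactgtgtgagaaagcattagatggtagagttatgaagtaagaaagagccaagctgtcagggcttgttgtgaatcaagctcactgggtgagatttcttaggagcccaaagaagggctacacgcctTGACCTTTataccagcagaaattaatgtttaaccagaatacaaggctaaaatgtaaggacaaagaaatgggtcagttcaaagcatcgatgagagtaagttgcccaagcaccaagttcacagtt
Ddc downstream: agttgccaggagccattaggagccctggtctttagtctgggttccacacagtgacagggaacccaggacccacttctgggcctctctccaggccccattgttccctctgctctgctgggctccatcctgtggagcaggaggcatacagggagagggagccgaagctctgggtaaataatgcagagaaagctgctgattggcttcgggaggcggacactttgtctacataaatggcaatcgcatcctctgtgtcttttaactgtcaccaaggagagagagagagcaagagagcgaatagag
The cAMP response element began 45 bases before the start of Th and 4 bases before that of Slc18a2, and was found in 1.79% of 32851 promoters of the same length. AAAGGTCA, 73 bases before the upstream Ddc start, was found in 1.51% of them. The forkhead motif TGTTTAC matched 141 bases before the start of Foxa1 and in 3.65% of all promoters. The homeobox motifs TAATCC (7.06% of all promoters) and TAATTA (5.29%) had no match in these windows of any member. No 2 of these motifs overlapped in a printed promoter.

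The dopamine transporter marked a small group of neurons in Foxr2 p53LOF. Of 2251 neuron-like nuclei, 134 (5.95%, 5.01 to 7.01) held at least 2 UMIs of Slc6a3 and were defined as Slc6a3-positive. After each nucleus was thinned to 2000 UMIs, 66 of 2247 (2.94%) still held at least 2. Among immune-like nuclei of the same library, which should not express it, 2 of 1794 (0.111%) reached 2 UMIs, at a median depth of 2792.5 UMIs against 9951 in neuron-like nuclei. In Foxr2 alone 0 of 4247 neuron-like nuclei reached 2 UMIs, which at 3 nuclei allows a share of such nuclei of up to 0.0706% (exact upper limit 0.0868%), and 6 (0.141%) held 1 UMI. Median depth there was 7304 UMIs, and after thinning 0 of 4121 nuclei reached 2 UMIs.

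Of the 134 Slc6a3-positive nuclei, 123 (91.8%) fell in cluster 6, which held 134 nuclei in all. Cluster 6 had all 8 of the midbrain dopamine markers fixed outside the member list (Lmx1a, Lmx1b, Foxa2, Aldh1a1, Chrna6, Chrnb3, Slc10a4 and Gch1) and is called midbrain dopamine-like. The other 11 were in cluster 14 (5 nuclei), cluster 17 (4), cluster 11 (1) and cluster 18 (1), which had no name. Cluster 14, of 44 nuclei, was led by Slc6a3 together with the oligodendrocyte genes Aspa and Mog. Its 7 oligodendrocyte markers summed to 2483 UMIs per 1000000 (CPM), against 106 in cluster 6. Without cluster 14 the Slc6a3-positive share was 5.85%. Values without this cluster are given where they differ, and the part of oligodendrocyte RNA in them was not tested.

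Slc6a3-positive nuclei held UMIs of all 10 members. Of the 9 members with at least 10 CPM on either side, all 9 were at least 2-fold higher in Slc6a3-positive than in the other 2117 neuron-like nuclei. This count includes Slc6a3, which chose the nuclei, and Pitx3 was below 10 CPM. Slc18a2, Ddc, Ret, Nr4a2 and Ttc6 reached 10 CPM on both sides, while Slc6a3, Th, En1 and Foxa1 reached it only in the positive nuclei where they were high, so the count is a description. Over all 9654 genes of that level, 4.52% were at least 2-fold higher and 7.61% at least 2-fold lower. The median log2 ratio was 4.26 over the members and -0.11 over all these genes, on the log2(CPM + 1) scale. CPM were not scaled to gene length and are not compared between genes.

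**Figure D1:**
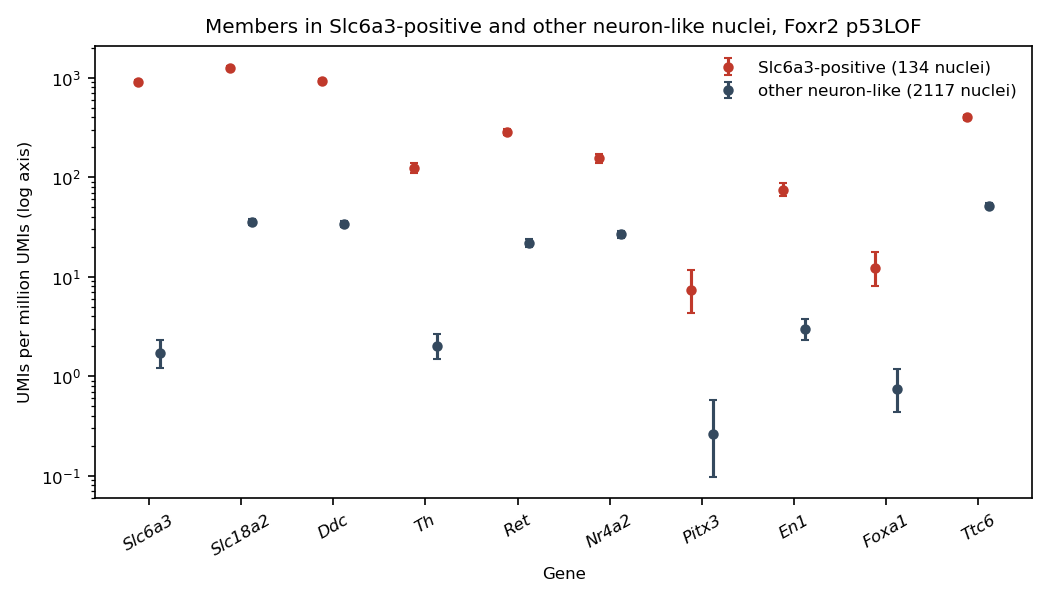
RNA level of each member, in UMIs per 1000000 on a log axis, in Slc6a3-positive (red) and other neuron-like nuclei (dark) of Foxr2 p53LOF. Points are sums over nuclei and bars are exact 95% Poisson intervals, and no pair of intervals overlaps.

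Among the transport and synthesis genes, Slc6a3 itself stood at 901 CPM against 1.71, a difference set by the choice of nuclei. Slc18a2 was at 1266 CPM (1221 to 1313) against 35.7 (33.3 to 38.2), which is 35.5-fold higher. Ddc was at 924 CPM (885 to 964) against 33.9 (31.5 to 36.3), or 27.3-fold higher. Th, the first and rate-limiting enzyme of synthesis, was at 124 CPM (110 to 139) against 2.01 (1.47 to 2.68), or 61.7-fold higher. Without cluster 14 the log2 ratio of Slc18a2 was 5.23 instead of 5.11 and that of Ddc 4.89 instead of 4.73.

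Counts per nucleus varied widely. The 134 Slc6a3-positive nuclei held 2 to 39 UMIs of Slc6a3 (median 16). Slc18a2 ranged from 0 to 53 UMIs (median 21) and Ddc from 0 to 48 (median 14.5). Th was sparser, from 0 to 12 UMIs with a median of 2. All 108 nuclei with Th (80.6%) also held Slc18a2 and Ddc, so that synthesis, vesicle loading and reuptake genes were read in the same nucleus. Among the other neuron-like nuclei, which were shallower, 17 of 2117 (0.803%) held Th, Slc18a2 and Ddc together. A Slc6a3-positive nucleus held a median of 7 members, the fewest being 4, and 5 nuclei held all 10. A median of 0 members was found in the other neurons, of which 60.8% held none.

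Ret, the GDNF receptor, was at 286 CPM (265 to 309) in Slc6a3-positive nuclei against 21.7 (19.8 to 23.7), or 13.2-fold higher. Its counts ran from 0 to 14 UMIs per positive nucleus, with a median of 5. Its co-receptor Gfra1, which binds GDNF, was at 249.5 CPM against 48.0, whereas the neurturin co-receptor Gfra2 was at 19.1 against 30.5. Of the 8 genes listed as GDNF family ligands and co-receptors, only these 2 reached 10 CPM.

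The transcription factors were also higher, but over very different background levels. Nr4a2 was at 156 CPM (140 to 173) against 26.7 (24.7 to 28.9), 5.83-fold higher and the smallest fold among the members. En1 was at 75.1 CPM (64.3 to 87.1) against 2.98 (2.31 to 3.77), or 25.2-fold higher. Foxa1 was at 12.1 CPM (8.07 to 17.6) against 0.744 (0.433 to 1.19), from 28 UMIs in 23 of the positive nuclei and 17 UMIs in the others. Pitx3 rested on 17 UMIs in 16 positive nuclei (7.38 CPM, 4.30 to 11.8) and 6 UMIs in the others (0.263 CPM, 0.0963 to 0.571). The counts of Pitx3 and Foxa1 are too few for their presence to be read in single nuclei.

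Ttc6 was at 400 CPM (374 to 426) in Slc6a3-positive nuclei against 51.7 (48.8 to 54.8), or 7.73-fold higher. It had a median of 6 UMIs per positive nucleus and at most 24. Of 6 other genes listed around Foxa1 and Ttc6, only Mipol1 reached 10 CPM, at 115 CPM against 105, so the difference was not shared by this neighbour. Ttc6 overlaps 4 annotated genes on the other strand, Ddc overlaps 1700042O10Rik, Slc18a2 overlaps Gm29261 and Pitx3 overlaps Elovl3. How the counting treated strand is not given in the sources used here, so reads of these antisense genes are not told apart from those of the members.

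**Figure D2:**
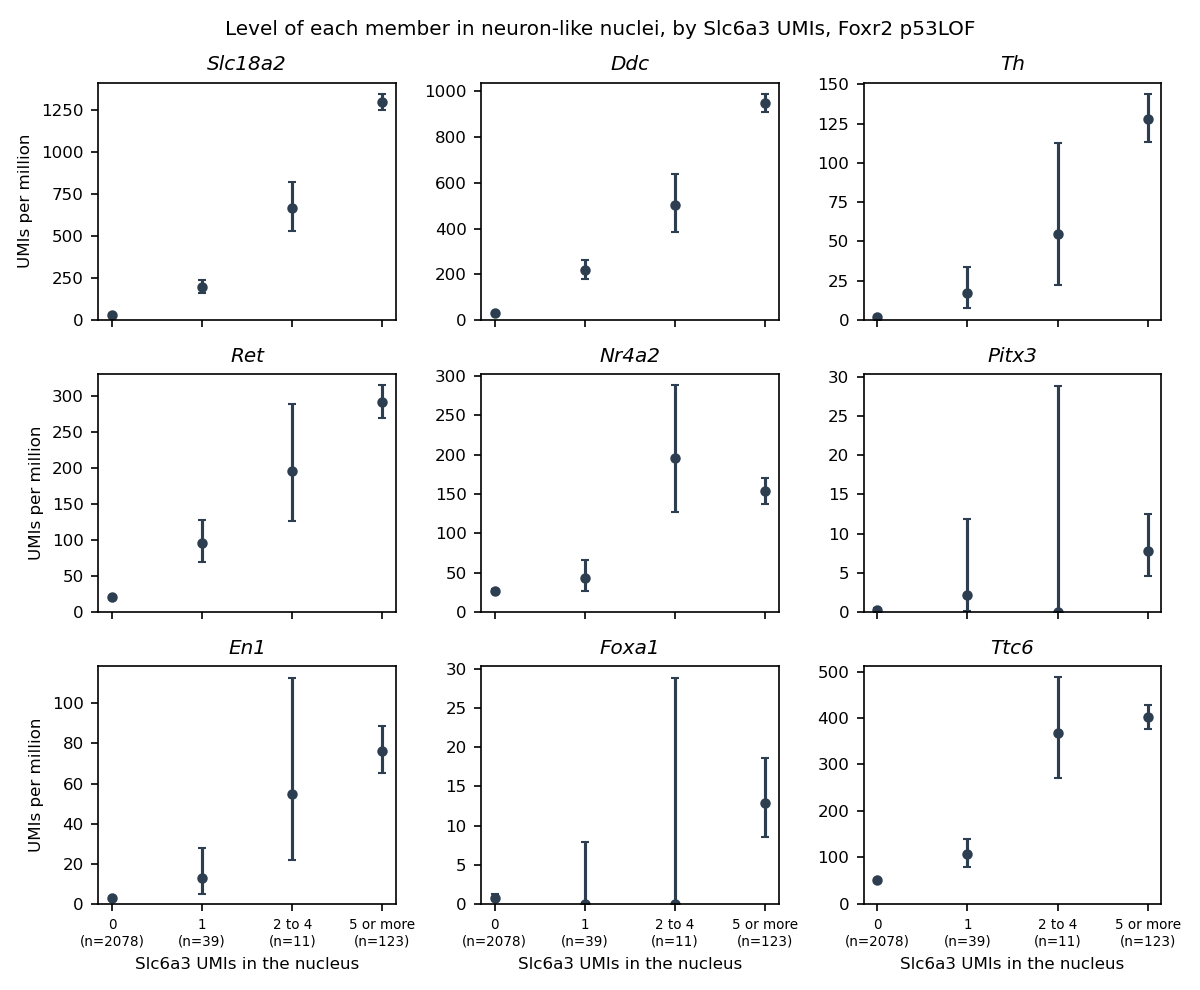
RNA level of the 9 members other than Slc6a3, in UMIs per 1000000, in neuron-like nuclei of Foxr2 p53LOF grouped by their Slc6a3 UMIs, with exact 95% Poisson intervals. Slc18a2 stepped from 32.3 through 196 and 665 to 1301, and the intervals at 2 to 4 and at 5 or more Slc6a3 UMIs overlap for Ret, Nr4a2, Pitx3, En1, Foxa1 and Ttc6.

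The 2-UMI limit was examined by grouping nuclei on their Slc6a3 count. Nuclei with 0 (2078), 1 (39), 2 to 4 (11) and 5 or more UMIs (123) had median depths of 9697, 10714, 10501 and 16731 UMIs. Just outside the limit, nuclei with 1 UMI had 196 CPM of Slc18a2 (158 to 240), 217 of Ddc (177 to 264) and 17.0 of Th (7.35 to 33.6). Just inside it, nuclei with 2 to 4 UMIs had 665 CPM of Slc18a2 (531 to 822), 501 of Ddc (386 to 639) and 54.8 of Th (22.0 to 113). Nuclei with 5 or more reached 1301, 949 and 128 CPM. The summed levels of the intermediate groups lay between the extremes for these 3 genes. In the nuclei with 1 UMI these sums came from a minority, since 12 of the 39 held any Slc18a2, 15 any Ddc and 5 any Th. Nr4a2 was at 26.4, 42.6, 196 and 153 CPM in the 4 groups and Ttc6 at 50.6, 106, 368 and 401.

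Across the 51 neuron clusters of both libraries, cluster 6 was the highest for 9 of the 10 members. Slc18a2 was at 1286 CPM (1239 to 1334) in cluster 6 and next highest in the serotonin-like cluster 19 (725 CPM, 635 to 826, 24 nuclei), then in clusters 17 (361) and 14 (236). Ddc followed the same order at the top, with 939.6 CPM (900 to 981) in cluster 6 and 475 (402 to 558) in the serotonin-like cluster. It was also at 146 CPM (86.5 to 231) in the small GABAergic cluster 23, of 15 nuclei. Th was at 121 CPM (107 to 136) in cluster 6, 42.5 (28.0 to 61.9) in cluster 14 and 31.7 (15.2 to 58.3) in the serotonin-like cluster, and the intervals of the latter 2 overlap. Slc6a3 was at 887 CPM in cluster 6, 135 in cluster 14 and 40.8 (21.7 to 69.7) in cluster 17, with no other cluster above 10.4.

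**Figure D3:**
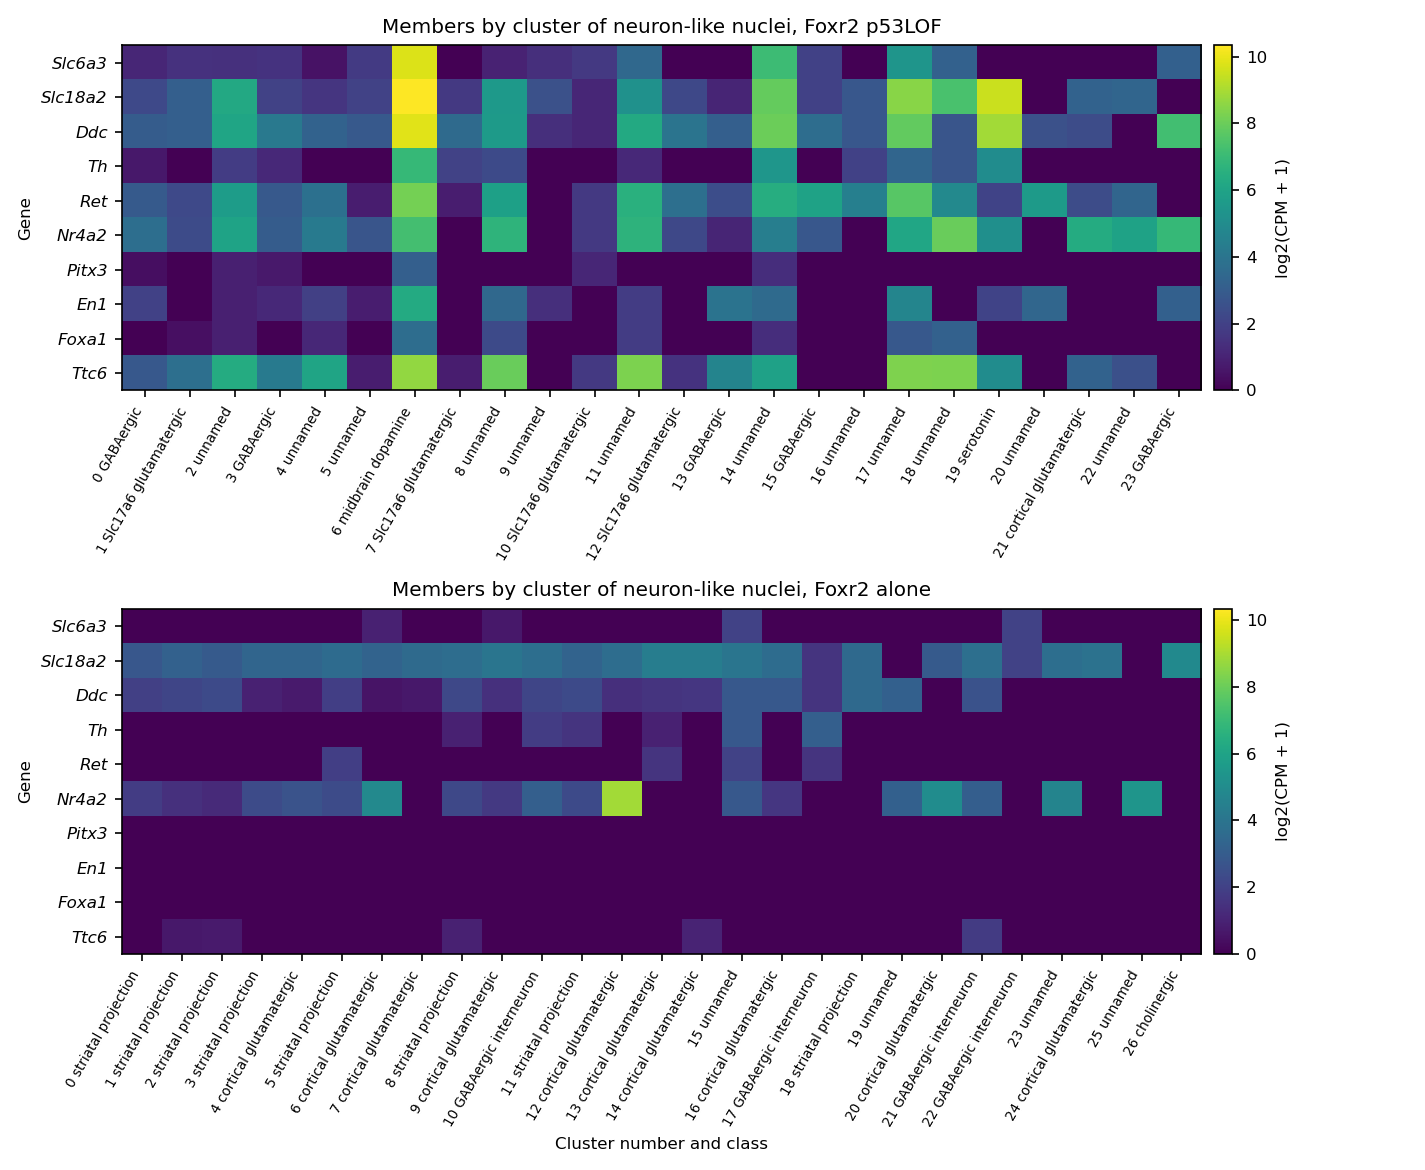
Level of the 10 members, as log2(UMIs per 1000000 + 1), in each neuron cluster of Foxr2 p53LOF and of Foxr2 alone. Cluster 6 of Foxr2 p53LOF is the brightest for 9 members, and Nr4a2 is highest in cluster 12 of Foxr2 alone (481 CPM).

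Ret and Ttc6 were also high in unnamed clusters. Ret was at 290.03 CPM (268 to 313) in cluster 6, 201 (155 to 256) in cluster 17 and 94.5 (74.0 to 119) in cluster 11. Ttc6 was at 399 CPM (373 to 426) in cluster 6, but at 320.03 (261 to 388) in cluster 17, 314 (259 to 378) in cluster 18, 309 (271 to 351) in cluster 11 and 253 (223 to 286) in cluster 8. The intervals of clusters 17 and 18 reach into that of cluster 6 at their upper ends. En1 was at 78.0 CPM (66.8 to 90.5) in cluster 6 and 25.1 (10.8 to 49.5) in cluster 17, and lower elsewhere. Foxa1 was at 12.1 CPM (7.98 to 17.6) in cluster 6 and 8.34 (1.72 to 24.4) in cluster 18, which overlap, and Pitx3 was at 7.62 CPM in cluster 6 and at most 1.58 in any other.

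Cluster 17 carried Gad1, Gad2 and Slc32a1, the genes of GABA synthesis and release, at a summed 753 CPM, against 11.2 in cluster 6. The vesicular glutamate transporter Slc17a6 was at 220 CPM in cluster 17 and 575 in cluster 18, against 36.3 in cluster 6. The high Ttc6 and Ret levels were therefore not limited to the cluster in which Slc6a3 was high.

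Nr4a2 had the least restricted pattern. Its highest level was in cluster 12 of Foxr2 alone, a cortical glutamatergic-like cluster of 117 nuclei, at 481 CPM (444 to 522). Cluster 18 of Foxr2 p53LOF followed at 250.1 CPM (201 to 307), and cluster 6 came next at 152 (136 to 169). The 3 intervals do not overlap. Clusters 23, 8 and 11, at 122, 103 and 102 CPM, followed, and cluster 23 (68.1 to 201) overlapped cluster 6.

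Other genes resembled Slc6a3 over these clusters. The 10 genes outside the member list with the highest Pearson r of log2(CPM + 1) with Slc6a3 over the 51 clusters were Chrna6 (0.82), Tmem207 (0.77), Gucy2c (0.74), Mboat1 (0.72), 9030622O22Rik (0.71), Gm31641 (0.70), 1700042O10Rik (0.68), Chrnb3 (0.66), C130021I20Rik (0.65) and Lmx1a (0.64). Among the members r ran from 0.43 for Nr4a2 and 0.56 for Slc18a2 to 0.76 for Foxa1. The clusters share their 2 libraries and differ in depth, so these values describe likeness only.

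Within the Slc6a3-positive nuclei, the genes with the largest ratio to the other neurons included known dopamine neuron genes. Aldh1a1, a retinaldehyde dehydrogenase of a ventral group of midbrain dopamine neurons, was at 371 CPM against 3.81, or 97.6-fold higher. Its near-identical paralog Aldh1a7 (22.1 against 0.394) may share reads with it. Slc10a4, a vesicular transporter-like protein of monoamine and cholinergic neurons, was at 103 against 1.53. The nicotinic receptor subunits Chrnb3 (226 against 6.65) and Chrna6 (102 against 3.59), the dopamine autoreceptor Drd2 (299.8 against 12.3) and the guanylate cyclase Gucy2c (104 against 3.37) were also among the 15. The others were Mboat1, Anxa1, Cyyr1, Ntf3, Gm31641, Gm11884, 1700042O10Rik and Lama5. By the log2(CPM + 1) ratio over all genes, Th ranked 3, Slc18a2 6 and Ddc 8.

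The other genes of the pathway were read from lists of genes outside the members, chosen with earlier results of these data known. Of 14 midbrain dopamine neuron factors, 9 reached 10 CPM, of which 8 were at least 2-fold higher and 0 lower. Sox6 was at 439.96 CPM against 36.2, Bnc2 at 455 against 23.4 and Lmx1b at 118 against 10.02. Of 18 effectors 16 were compared, 14 were higher and 0 lower, for example the potassium channel subunit Kcnj6 at 925 CPM against 114. The factor En2 and the effectors Aldh1a1, Slc10a4, Chrna6, Chrnb3, Gucy2c and Ntsr1 reached 10 CPM only in the Slc6a3-positive nuclei, so both counts are descriptions. Over all 9654 genes compared, 4.52% were at least 2-fold higher and 7.61% at least 2-fold lower. Of these lists, Lmx1a, Lmx1b, Foxa2, Aldh1a1, Chrna6, Chrnb3 and Slc10a4 were also markers used to name cluster 6. Gch1, the enzyme that opens the synthesis of tetrahydrobiopterin, the cofactor of Th, was at 20.4 CPM against 1.97, while 2 further genes of its supply, Pts (10.4 against 5.51) and Qdpr (15.2 against 11.8), were less than 2-fold higher. Maoa, a monoamine oxidase that breaks dopamine down, was at 62.9 against 23.7, and the aldehyde dehydrogenase Aldh2 at 10.4 against 12.8. Drd2 was the only 1 of 5 dopamine receptor genes to reach 10 CPM.

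Genes of other monoamine neurons were low or absent. None of 12 such genes, among them Dbh, Slc6a4 and Tph2, reached 10 CPM, and the noradrenaline markers had 0 UMIs in the 123 positive nuclei of cluster 6. Of 9 hypothalamic dopamine-related factors, Onecut2 (8.24 against 47.2) and Prlr (21.7 against 56.1) were compared and both were at least 2-fold lower. Of 6 genes of glutamate or GABA release 4 were compared and all 4 were at least 2-fold lower: Slc17a6 (35.6 against 275), Gad1 (1.30 against 82.1), Gad2 (18.2 against 164) and Slc32a1 (7.38 against 32.3). Onecut2, Gad1 and Slc32a1 reached 10 CPM only in the other neurons, where they were high. Among all 9654 genes compared, 7.61% were at least 2-fold lower.

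Markers of other cell types were also summed. The 7 oligodendrocyte markers, all detected, summed to 99.5 CPM in the 123 positive nuclei of cluster 6, to 1493 in the 11 positive nuclei outside it and to 257 in the other neurons. The 8 astrocyte markers summed to 274 and 224 CPM in the first and last of these groups, and the 7 immune markers to 16.5 and 24.8. The part of such RNA in the ratios was not tested. GFP from the plasmid was at 47.2 CPM in the positive nuclei of cluster 6 and 79.2 in the other neurons, below the 242 of immune-like nuclei. Depth differed, with a median of 15885 UMIs in cluster 6 and 2792.5 in immune-like nuclei. The UMIs of GFP numbered 100 in the 123 nuclei and 1797 in the 1794 immune-like nuclei. Whether GFP was above background was not tested.

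Accessibility at the promoters followed the RNA for some members only. A promoter peak was a deposited peak within 1000 bases of a gene start, and fragments were taken as peak counts divided by 2. Of the 9 members with a promoter peak, 7 were at least 2-fold more accessible in Slc6a3-positive nuclei, against 1.89% of the 14793 promoters with at least 10 fragments per 1000000 on either side. The 7 reached that level only in the positive nuclei, and Ret and Nr4a2, which reached it on both sides, were not 2-fold higher, so the count is a description. The nuclei were chosen by RNA, and the ATAC reads were not used to choose them.

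**Figure D4:**
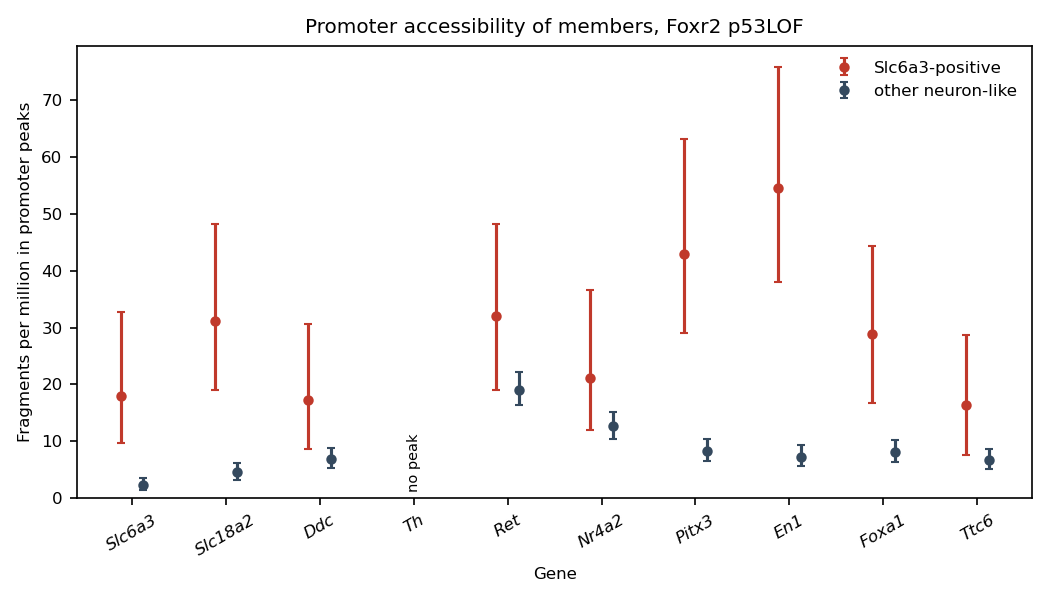
Fragments per 1000000 in the promoter peaks of each member in Slc6a3-positive (red) and other neuron-like nuclei (dark) of Foxr2 p53LOF, with exact 95% Poisson intervals. En1, Pitx3, Slc18a2, Foxa1 and Slc6a3 are separated, the intervals of Ddc, Ttc6, Ret and Nr4a2 overlap, and Th had no peak.

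The Slc6a3 promoter had 17.9 fragments per 1000000 in positive nuclei against 2.30 in the others, a log2 ratio of 2.97 (1.90 to 4.17). Slc18a2 was at 31.2 against 4.48 (2.80, 1.95 to 3.61). Ddc was less separated, at 17.2 against 6.83 (1.33, 0.25 to 2.27). With a pseudocount of 1 its log2 ratio was 1.21, and with positive nuclei defined by 5 UMIs it was 0.93, under 2-fold. The single Ddc peak of this library covered the downstream start and not the upstream start printed above. No peak was called at either start of Th in any of the 3 libraries. The nearest peaks to its downstream start, at position 142900014 of chromosome 7, were 2664, 2641 and 4773 bases away in Foxr2 p53LOF, Foxr2 alone and Foxr2 alone replicate 2. Th, which was 61.7-fold higher in RNA, thus had no promoter peak to compare.

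The largest promoter ratios among the transcription factors belonged to En1 and Pitx3. En1 was at 54.6 fragments per 1000000 against 7.28 (log2 ratio 2.91, 2.27 to 3.52), with a count in 23.9% of positive nuclei. Pitx3, whose RNA was so sparse, was at 42.9 against 8.29 (2.37, 1.72 to 3.04), with a count in 17.9% of positive nuclei. Foxa1 was at 28.9 against 8.06 (1.84, 0.97 to 2.56). Nr4a2 was at 21.1 against 12.6 (0.74, -0.12 to 1.61) and Ret at 31.98 against 19.0 (0.75, -0.03 to 1.39), so neither difference was detectable at this depth. Ttc6 was at 16.4 against 6.72 (1.29, 0.08 to 2.19). This peak lay at the downstream of its annotated starts (position 57575817). No peak of this library lay within 1000 bases of the upstream start, at 57564113. With a pseudocount of 1 its log2 ratio was 1.17, and without cluster 14 it was 0.97, which leaves 6 of the 9 at 2-fold. Cluster 17, with 4 of 34 nuclei Slc6a3-positive, was also accessible at some of these promoters. En1 was at 63.97 fragments per 1000000 there against 57.74 in cluster 6, Ddc at 47.98 against 18.15 and Slc18a2 at 35.98 against 31.35. These cluster 17 values rest on 8, 6 and 4.5 fragments, and the intervals of both clusters overlap. Ttc6 was also higher in cluster 17, while Slc6a3, Ret, Nr4a2, Pitx3 and Foxa1 were lower. Some promoters were accessible in other cell types too. The 1085 astrocyte-like nuclei of joint cluster 6 had 0 Pitx3 UMIs but 20.5 fragments per 1000000 at its promoter, and 27.6 at En1. Nr4a2 was at 27.1 there, 33.9 in the precursor-like joint cluster 5 and 23.7 in immune-like nuclei, against 21.1 in positive nuclei. For every other member with a peak, positive nuclei were higher than these groups.

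A pair of peaks away from the starts is given as an example, chosen after their values were seen. A peak at chr12:57534698-57535477, 11033 bases from the Foxa1 start and upstream of Ttc6, had 40.6 fragments per 1000000 in positive nuclei against 3.98 (log2 ratio 3.35, 2.54 to 4.10). For Nr4a2, whose promoter peak did not separate, a peak at chr2:57114463-57115288 had 53.05 against 17.4 (1.61, 1.03 to 2.15). It lay at -1804 bases from an annotated Nr4a2 start, and with a promoter window of 2000 bases the log2 ratio of Nr4a2, with a pseudocount of 1, was 1.28 instead of 0.70.

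In Foxr2 alone, Slc6a3, Th, Ret and Ttc6 were below 1 CPM in neuron-like nuclei, while Nr4a2 and Slc18a2 were above 10 CPM. Immune-like nuclei of that library were at 3.52 CPM of Slc18a2 (0.426 to 12.7), which overlaps the neuron-like 10.1 (9.05 to 11.2). Of the 7 members with at least 10 CPM in either library, 6 were at least 2-fold higher among the Foxr2 p53LOF neurons, as were 12.7% of 10598 genes. Of these 6, all but Slc18a2 reached 10 CPM only in Foxr2 p53LOF, where they were high. This compares the libraries and not the genotypes. Slc6a3 was at 84.1 CPM in Foxr2 p53LOF and 0.182 in Foxr2 alone, Slc18a2 at 148 and 10.1, and Ddc at 115 and 2.51. Th was at 13.2 and 0.454 CPM, Ret at 45.9 and 0.272, and Ttc6 at 83.6 and 0.212. Pitx3, En1 and Foxa1 had 0 UMIs in the 4247 neuron-like nuclei of Foxr2 alone. At a floor of 3 UMIs over the class they were 10.07-, 105.5- and 19.7-fold lower there. The exact lower limits of their log2 ratios, Foxr2 p53LOF over Foxr2 alone, were 2.92, 6.41 and 3.94. Nr4a2 differed least, at 38.6 against 23.1 CPM (log2 ratio 0.74 with no pseudocount, 0.60 to 0.88).

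The size of these differences changed when nuclei were thinned or doublets kept, and the cause was not tested. On the log2(CPM + 1) scale, thinning each nucleus to 2000 UMIs, with shallower nuclei left out, lowered the ratio of Ddc from 5.05 to 4.29 and that of Slc18a2 from 3.75 to 3.07. The ratios of Slc6a3 (6.17 to 5.54), Th (3.29 to 2.69) and Ret (5.20 to 4.54) also fell by more than 1.5-fold. These falls were smaller than the distance from the middle to an end of their counting intervals. Those of En1 (3.40 to 2.76) and Foxa1 (1.48 to 0.53) fell by more than 1.5-fold too. With 0 UMIs in Foxr2 alone, their intervals had no upper end. With doublets kept, Ddc was at 4.31. Under both alternatives 6 members were at least 2-fold higher.

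Removing the Slc6a3-positive nuclei from Foxr2 p53LOF lowered the members' levels there. Ret was then at 21.7 CPM, Ttc6 at 51.7, Ddc at 33.9 and Slc18a2 at 35.7, each still above Foxr2 alone, and En1 was at 2.98 CPM. Nr4a2 was at 26.7 against 23.1. Of the 5 members with at least 10 CPM in this comparison, 4 were at least 2-fold higher, where 12.5% of 10594 genes were. Ret, Ttc6 and Ddc reached 10 CPM only in Foxr2 p53LOF, where they were high, so this count is a description. Promoter peaks of Ret, Nr4a2, Pitx3, En1, Foxa1, Ttc6, Slc18a2 and Ddc were called in Foxr2 alone too. The Slc6a3 promoter had no peak there and 1 in Foxr2 alone replicate 2.

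Outside neurons, Ddc was most abundant in a group of Foxr2 alone nuclei in which no other member passed 5.86 CPM. This unnamed cluster of 3018 nuclei (joint cluster 0, median 1171.5 UMIs) was led by Ptgds, Mal, Olfml1 and Hapln2, and its 7 oligodendrocyte markers summed to 13045 CPM. It was left unnamed because its depth was low and none of these markers was among its 10 leading genes. Ddc was at 373 CPM (355 to 393), with a UMI in 928 nuclei (30.7%, 29.1 to 32.4). In the whole unnamed class of 3049 nuclei, thinned to 2000 UMIs, 88 of 270 (32.6%) held Ddc, against 25 of 4121 neuron-like nuclei (0.607%) and 1 of 45 immune-like nuclei (2.22%). In Foxr2 p53LOF the oligodendrocyte-like nuclei were at 41.0 CPM (35.0 to 47.7) and immune-like nuclei at 7.54.

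**Figure D5:**
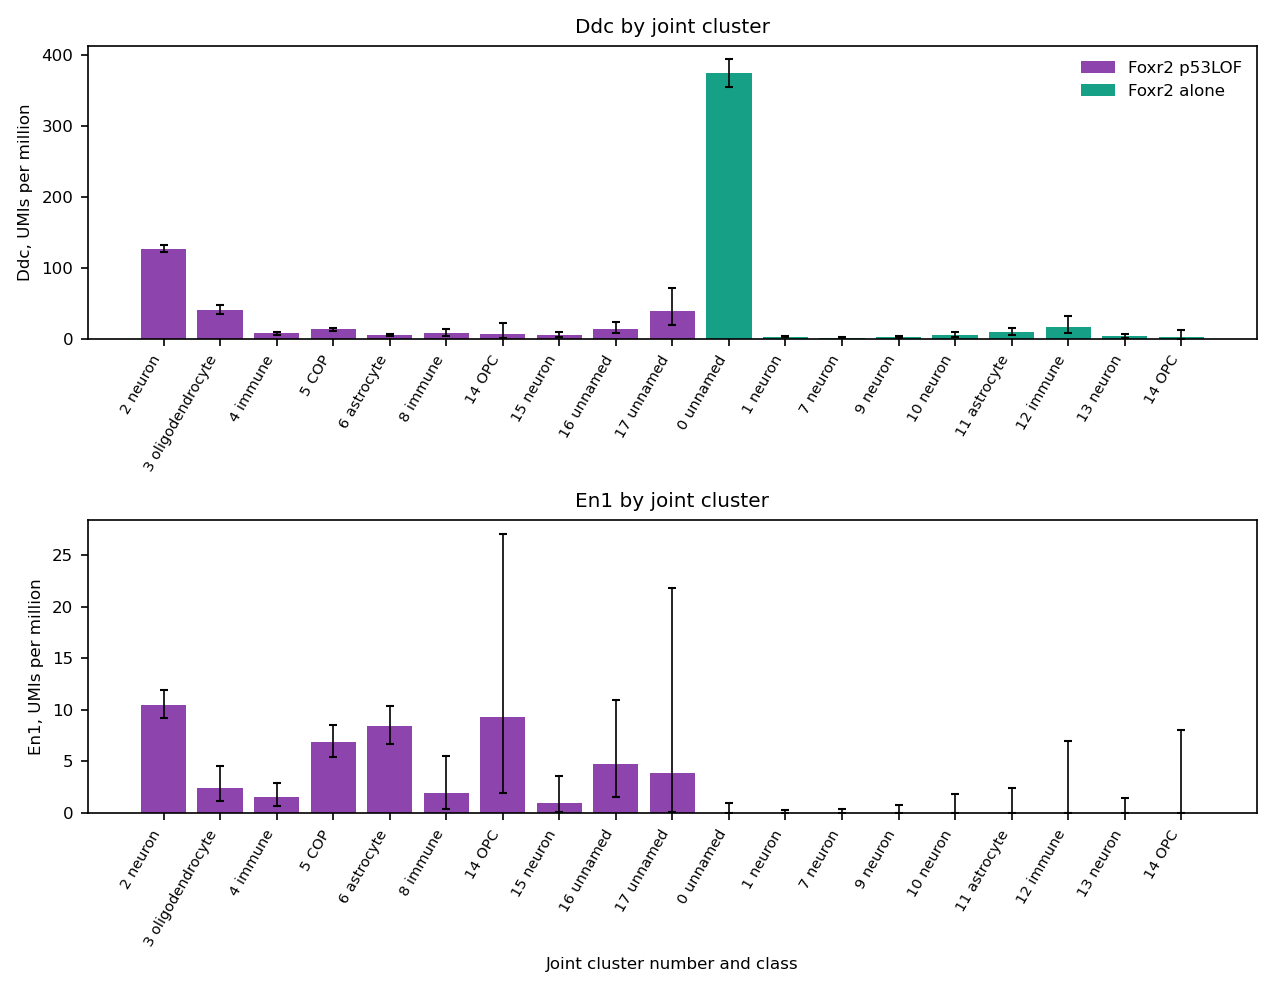
Level of Ddc and En1, in UMIs per 1000000, in each joint cluster of Foxr2 p53LOF and Foxr2 alone nuclei, with exact 95% Poisson intervals. Ddc is highest in the unnamed cluster 0 of Foxr2 alone (373 CPM), and En1 is 0 in every cluster of Foxr2 alone.

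The Ddc starts differed in the same way. Foxr2 alone had a peak at each start, at chr11:11889974-11890906 and chr11:11897394-11898301. In the unnamed class these had 14.2 (12.1 to 16.7) and 16.1 (13.7 to 18.7) fragments per 1000000, against 1.48 and 0.438 in neuron-like nuclei and 0 in immune-like nuclei. Foxr2 p53LOF had the downstream peak only, at chr11:11889951-11890838, with 7.52 fragments per 1000000 in neuron-like and 6.66 in oligodendrocyte-like nuclei. The upstream promoter with its AAAGGTCA match was thus covered by a peak in Foxr2 alone and not in the library that held the dopamine-like neurons. Peaks were called in each library on its own.

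En1 was also read in glia-like nuclei of Foxr2 p53LOF. Nuclei like committed oligodendrocyte precursors were at 6.85 CPM (5.43 to 8.52) and astrocyte-like nuclei at 8.38 (6.69 to 10.4), against 1.62 (0.835 to 2.82) in immune-like nuclei. After thinning, 1.21% (0.644 to 2.06) and 1.67% (0.994 to 2.63) of the nuclei of these classes held En1, against 0.289% (0.0788 to 0.738) of immune-like nuclei, and the first of these intervals overlaps the last. The unthinned shares were 5.90%, 7.25% and 0.669%. The neuron-like nuclei outside the Slc6a3-positive group, at 2.98 CPM, were below both glia-like classes. In Foxr2 alone the 425 astrocyte-like nuclei had 0 UMIs of En1, which at a floor of 3 UMIs allows up to 1.99 CPM. They are not the same group of nuclei. Of the astrocyte-like nuclei, 1085 of Foxr2 p53LOF were in joint cluster 6, led by Gm4951, Hmga2 and Gbp4. In Foxr2 alone 423 were in joint cluster 11, led by Gm4710, Etnppl and Fam107a. The precursor-like joint cluster 5, led by Hmga2 and Tnc, held 0 nuclei of Foxr2 alone.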

How the data were processed

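The authors aligned reads to mm10 plus vector sequences and called cells and peaks per library with Cell Ranger ARC 2.0.0, per the labels and the methods of the study. As deposited, the values are raw counts for each barcode (UMIs of each gene, and transposase cuts in each peak) without normalization, and 13 vector features stayed out of the gene comparisons. Nuclei were filtered on genes, UMIs, mitochondrial share and fragments in peaks, with upper limits of genes, UMIs and fragments from the study. Its filters on transcription start site enrichment and nucleosome signal were not applied, so the nuclei kept are not those of the study. Doublets called by Scrublet (expected rate 8%) were removed, 353 (4.05%) from Foxr2 p53LOF and 540 (6.10%) from Foxr2 alone. Nuclei were clustered with scanpy 1.11.5 and leidenalg 0.10.2 on 2000 variable genes, 30 principal components and 20 neighbours, at resolution 0.5 over both libraries and 1 within neuron-like nuclei of a library. The members and gene lists were left out of the variable genes. The member list, the gene lists and the comparisons were chosen with earlier results of these data known.

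CPM are UMIs summed over nuclei per 1000000 UMIs (96929539 UMIs in Foxr2 p53LOF and 59719847 in Foxr2 alone before filtering). Intervals are exact Poisson, binomial or conditional binomial at 95%, cover counting error only, and treat nuclei as no replicates. The ratio calculation was checked on simulated counts with known folds. Genes were compared when either side had 10 CPM, with a pseudocount of 1 CPM where a log2(CPM + 1) scale is named. Besides members and lists, the genes named were the 15 with the largest ratio among those with 50 UMIs in Slc6a3-positive nuclei and the 10 most like Slc6a3 over clusters reaching 20 CPM. Gene starts came from GENCODE vM21 (GRCm38, the assembly of mm10). Alternatives covered the Slc6a3 limit, doublets, quality limits, thinning, the comparison nuclei, the pseudocount, the promoter window and the cluster resolution. The counts of Foxr2 alone replicate 2 were not analysed here, and no fragment files were used. Some genes of the lists are not reported here.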

Additional observations from a re-analysis of the deposited data

How the results depend on the processing

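No paired analysis was possible because the counts of 1 library for each genotype were analysed here, and for the same reason no library could be left out. Defining Slc6a3-positive nuclei by at least 1 UMI raised their share from 5.95% to 7.69% of neuron-like nuclei, since it adds the nuclei with a single UMI. At 5 UMIs it was 5.46%, and with doublets kept 5.71%. The count of members at least 2-fold higher in RNA was 9 under 7 alternatives. An eighth, with comparison nuclei chosen to hold no member UMI, fixes that outcome and says nothing of stability. Moves of single genes were set against the distance from the middle to an end of their counting interval. Where a count of 0 left the interval open, the distance of the ratio, with a pseudocount, from the lower end was used. Leaving out that eighth alternative, 123 values moved by no more than this and 22 by more. The 123 include promoter ratios that could not move, because the changed window held the same peaks. A narrower promoter window left every promoter ratio as in the main setting. The window of 2000 bases changed that of Nr4a2 only. These unchanged ratios say nothing of stability. The count of promoters ran from 6 (at 5 UMIs, or without cluster 14) to 8 (window of 2000 bases). Cluster resolutions of 0.5 and 2 kept 9 members highest in a midbrain dopamine-like cluster. At 0.5 that cluster held 134 nuclei with the same values as in the main setting, so this setting adds little. Removal of cluster 14, which was the highest for no member, could not change this count. No result changed direction. Removing cluster 14 was chosen after the data were seen. Pitx3 and Foxa1 rest on 17 and 28 UMIs in positive nuclei, which limits any statement on them.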

Other observations

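The Slc6a3-positive nuclei were not uniform in Aldh1a1, the gene with the largest ratio among those outside the member list. A UMI of Aldh1a1 was present in 68 of them (median 18252 UMIs) and absent in 66 (median 14063). This division was made after the values were seen, and nuclei of 1 library are not replicates. Ret was lower in the nuclei with Aldh1a1, at 247 against 336 CPM (log2 ratio -0.44, -0.67 to -0.22), and Slc18a2 was at 1189 against 1366 (-0.20, -0.31 to -0.09). En1 was higher, at 86.0 against 60.9 CPM (0.50, 0.04 to 0.97), and Ttc6 was at 432 against 357 (0.27, 0.08 to 0.47). Slc6a3 was at 860 against 954 CPM (-0.15, -0.28 to -0.02). The intervals of Ddc, Th, Nr4a2, Pitx3 and Foxa1 included 0.

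Some other genes, picked for being known to vary among midbrain dopamine neurons, are given as values. Sox6 was at 548 against 299.4 CPM and the calcium-binding protein Calb1 at 57.6 against 116. All 60 UMIs of Anxa1 in Slc6a3-positive nuclei were in nuclei with Aldh1a1. The GABA synthesis gene Gad2 was at 6.14 against 33.9 CPM, from 8 and 34 UMIs. All 134 nuclei of cluster 6 held 15 UMIs of Gad2, so most of these UMIs lay in the 11 positive nuclei outside it. Otx2 was at 10.7 against 4.99 CPM and Drd2 at 309 against 288, and both intervals of the ratio included 0 (-0.45 to 2.93 and -0.12 to 0.32). The difference in depth between these nuclei was not removed.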
